A study of Mus musculus with 8 samples.

Results

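The RNA of 10 transcription factors that mark or shape the hepatic stellate cell lineage was followed in cultured mouse stellate cells. The factors were chosen as a list of gene names, Tcf21, Hand2, Twist1, Gata4, Gata6, Foxf1, Lhx2, Wt1, Bnc2 and Pparg, and all 10 were present among the 40840 genes counted. The cells were primary myofibroblastic hepatic stellate cells (pMF-HSCs), isolated from wild-type male C57BL/6J mice aged 15 to 18 weeks, sorted by flow cytometry on the autofluorescence of their retinol stores, and grown for 7 days in culture, which turns the quiescent vitamin A-storing cell into a contractile, collagen-secreting myofibroblast. The control group (n = 4) received the DMSO vehicle and the OGTi group (n = 4) received 50 µM OSMI-1 for 24 h, an inhibitor of O-GlcNAc transferase (OGT), the enzyme that attaches the sugar O-GlcNAc to serine and threonine residues of nuclear and cytoplasmic proteins. The comparison asks how much RNA of each factor myofibroblastic cells hold once this enzyme is inhibited. The groups are biological replicates and the study's methods pair treated and control cells of one replicate number. The cells have already spent a week on plastic, so the quiescent state itself was not measured here, and no protein level or O-GlcNAc level is in these data.

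Stellate cells arise from the mesoderm of the septum transversum, and several factors that are switched on there remain expressed in the adult cell. TCF21, HAND2 and TWIST1 are basic helix-loop-helix (bHLH) proteins, which bind the E-box CANNTG as dimers with an E protein such as TCF3, TCF4 or TCF12 and are held off DNA by the ID proteins. GATA4, GATA6, LHX2 and TCF21 are known for holding stellate cells away from the fibrogenic state, as is PPARG, the nuclear receptor of the lipid-storing quiescent cell, whereas BNC2, TWIST1 and FOXF1 have been tied to matrix-producing mesenchymal cells. WT1 marks the liver mesothelium, a source of stellate cells in the embryo.

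The 250 bases upstream of the start of Tcf21, Hand2 and Foxf1 are shown because Tcf21 is the single factor called changed, and because Hand2 and Foxf1 each start beside a long noncoding RNA that is transcribed away from them. They were read from the GRCm39 genome at the canonical GENCODE start, 5′ to 3′ on the strand of the gene. Capitals mark E-boxes (CANNTG, a pattern that is its own reverse complement). Tcf21 is on the minus strand (window chr10:22696074-22696323), and Hand2 (chr8:57773761-57774010) and Foxf1 (chr8:121810824-121811073) are on the plus strand.
Tcf21: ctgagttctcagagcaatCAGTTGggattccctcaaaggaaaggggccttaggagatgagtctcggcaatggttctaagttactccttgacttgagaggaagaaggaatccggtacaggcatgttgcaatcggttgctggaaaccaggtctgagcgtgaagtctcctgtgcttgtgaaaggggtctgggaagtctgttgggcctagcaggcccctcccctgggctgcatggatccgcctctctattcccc
Hand2: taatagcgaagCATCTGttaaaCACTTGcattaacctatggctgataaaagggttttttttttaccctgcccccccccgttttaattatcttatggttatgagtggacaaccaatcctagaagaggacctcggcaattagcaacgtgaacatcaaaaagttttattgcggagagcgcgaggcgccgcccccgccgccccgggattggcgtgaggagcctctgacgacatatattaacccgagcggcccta
Foxf1: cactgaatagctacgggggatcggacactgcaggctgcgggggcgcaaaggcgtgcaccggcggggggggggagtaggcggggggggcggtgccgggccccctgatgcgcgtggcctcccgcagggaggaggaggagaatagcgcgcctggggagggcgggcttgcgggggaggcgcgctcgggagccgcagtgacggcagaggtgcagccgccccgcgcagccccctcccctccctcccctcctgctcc
The Tcf21 window held the E-box CAGTTG, 232 to 227 bases before the start, the Hand2 window held CATCTG at 239 to 234 and CACTTG at 228 to 223 bases, and the Foxf1 window held none. The windows also differed in base composition, with 54.0% G and C for Tcf21, 49.2% for Hand2 and 76.4% for Foxf1, against a median of 53.2% over all windows. Of the 9 factors searched (Gata6 was not searched), 7 had an E-box, where 64.8% of 21738 such windows in the genome have one. The GATA word GATAA, counted on both strands, was in 3 of 9 windows (Hand2, Gata4 and Wt1) against 22.4% of all windows, and the TEAD word GGAATG was in 0 of 9 against 12.1%. These are matches of letters in a short window and not binding sites.

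The libraries held 30068876 to 37372420 expected counts, and 19963 genes with a total of at least 10 counts were tested, all 10 factors among them. OGTi replicate 4 stood apart in detecting 23746 genes, against 19035 to 20293 in the other libraries, and calls lost without replicate pair 4 are given beside the genes named, the cell type markers excepted. All 17 markers of stellate cells and myofibroblasts reached 1 TPM in at least 1 library, and their summed level was 12972 to 23268 TPM in control and 11427 to 23499 TPM in OGTi cells. Of 10 endothelial markers, 9 stayed under 1 TPM in every library, as did 8 of 10 hepatocyte markers (Alb, Hnf4a and Apoa1 among them), 4 of 10 macrophage markers, 3 of 8 mesothelial, 6 of 8 portal fibroblast and 4 of 8 cholangiocyte markers. The cells were sorted on retinol autofluorescence before culture, and no measure of the purity of the sort is in these data. The marker levels below are those after a week of culture. In a bulk sample, fewer cells of a type and less RNA per cell cannot be told apart.

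**Figure D1:**
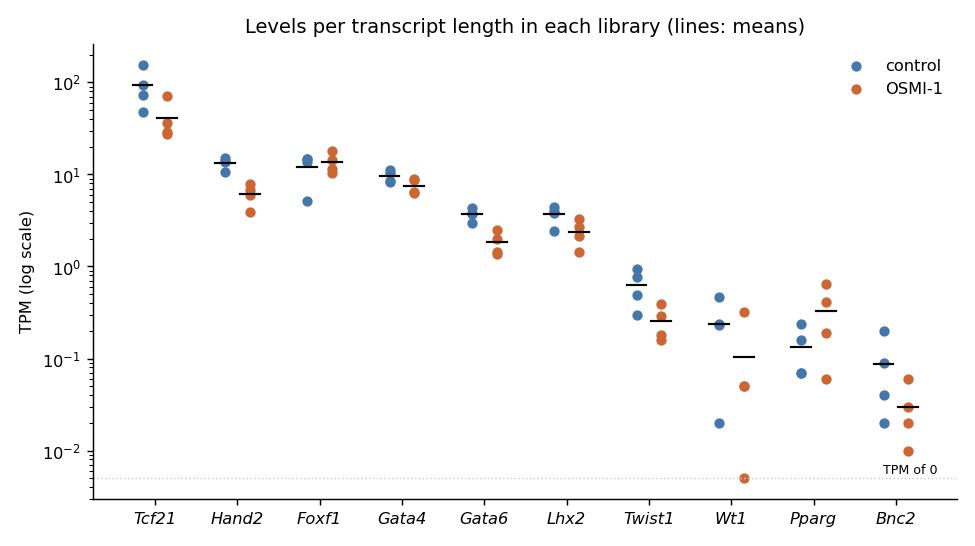
Level of each factor in each library in TPM (log scale), ordered by mean control level, with control libraries in blue, OGTi (OSMI-1) libraries in orange and group means as lines. The level spans from a mean of 93.2 TPM for Tcf21 to 0.0875 TPM for Bnc2 in control cells, and the single TPM of 0 (Wt1 in OGTi replicate 3) is drawn on the dotted line.

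Levels were compared between factors in TPM, the RSEM abundance that is scaled by transcript length and by the library. Tcf21 was by far the most abundant, at 93.2 ± 46.1 TPM in control cells (SD, n = 4), above 90.8% of the genes tested. Hand2 (13.4 ± 1.88 TPM), Foxf1 (12.1 ± 4.67) and Gata4 (9.58 ± 1.42) followed, then Gata6 (3.69 ± 0.540) and Lhx2 (3.68 ± 0.878). Hand2 and Foxf1, Foxf1 and Gata4, and Gata6 and Lhx2 had overlapping control ranges, so these neighbours did not differ beyond their spread. The ranges of Tcf21 and Hand2, of Gata4 and Gata6, and of Lhx2 and Twist1 did not overlap. These 6 factors were above 1 TPM in every control library. The other 4 stayed under 1 TPM in every library of both groups, with control means of 0.622 ± 0.284 TPM for Twist1, 0.240 ± 0.184 for Wt1, 0.135 ± 0.0819 for Pparg and 0.0875 ± 0.0806 for Bnc2, and each overlapped its neighbour in the order. Pparg and Bnc2, with 2 to 51 expected counts per library, were close to the counting limit in these 7-day cultures.

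Of the 10 factors, 1 was called changed by the inhibitor at an adjusted p of at most 0.05 (edgeR's quasi-likelihood test with Benjamini-Hochberg adjustment over all genes tested). This was Tcf21, which was lower. Among all genes tested 18.4% were called, 10.2% lower and 8.13% higher, so 1 of 10 is not above the background. The median log2 fold change of the 10 factors was -0.78, beside 0.01 over all genes, and 8 of the 10 fold changes were negative, with only Foxf1 and Pparg positive. At an unadjusted p under 0.05 stood 3 factors, Tcf21, Hand2 and Gata6, where 31.8% of all genes did. In CPM (counts scaled to a common library size, with TMM) none of the 10 had groups that did not overlap, where over all genes 12.0% had every OGTi library below every control library and 11.5% the opposite. Tcf21, Gata6 and Twist1 were lower in all 4 replicate pairs and Foxf1 was higher in all 4, where 21.5% and 19.4% of all genes were.

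**Figure D2:**
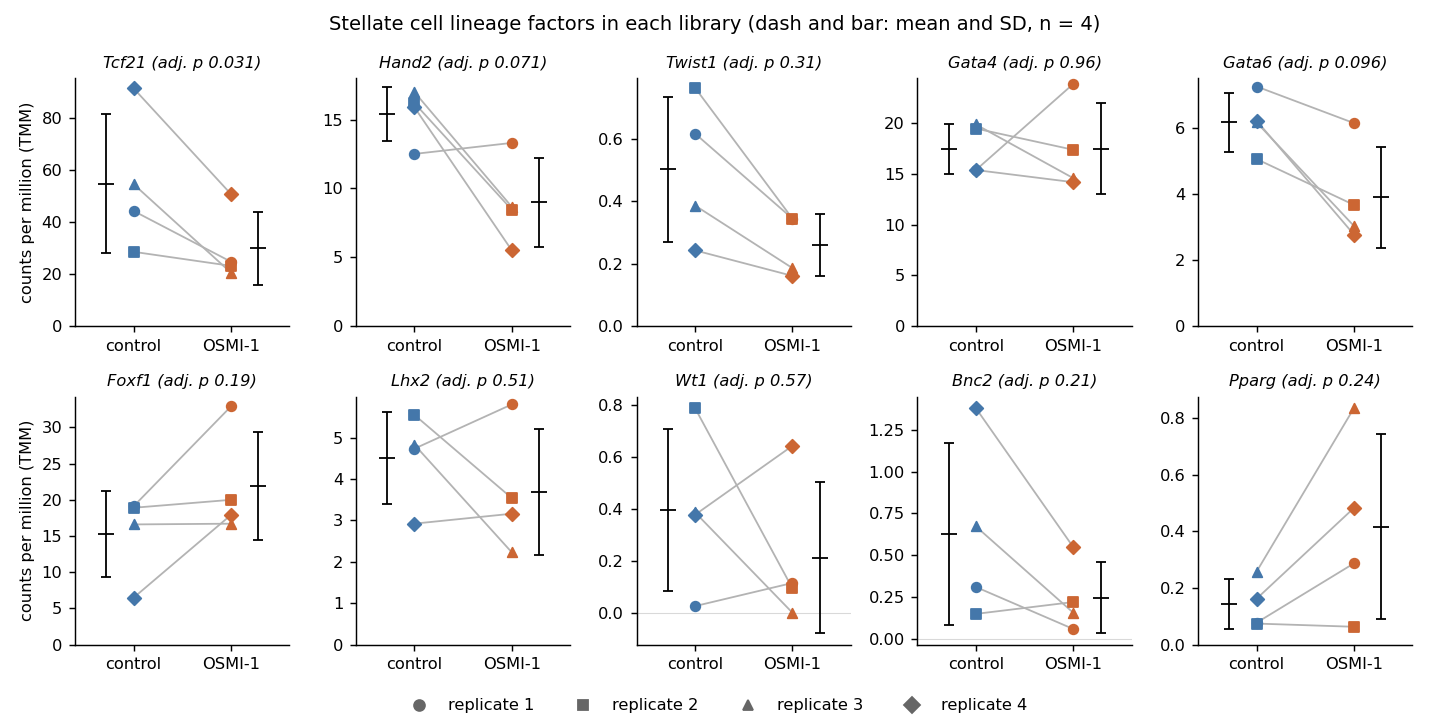
TMM-scaled CPM of the 10 factors in each library (linear axes), with grey lines joining control (blue) and OGTi (OSMI-1, orange) cells of one replicate and a dash and bar for mean and SD (n = 4). Tcf21, Gata6 and Twist1 are lower and Foxf1 is higher in the OGTi library of each pair, while the groups overlap for all 10 factors.

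Tcf21, the bHLH factor of mesenchymal progenitors and resident fibroblasts, fell 1.80-fold. It stood at 44.2, 28.5, 54.5 and 91.3 CPM in control replicates 1 to 4 and at 24.7, 23.1, 20.5 and 50.7 CPM in the OGTi replicates of the same numbers. Every OGTi library was below its own control, by 0.30 (replicate 2) to 1.41 (replicate 3) on the log2 scale, yet the highest OGTi library, replicate 4, lay above 2 of the 4 control libraries. The log2 fold change was -0.85 ± 0.24 (SE), with an adjusted p of 0.0314. The control cultures differed 3.20-fold among themselves, with replicate 4 highest in both groups, and the call was lost without the pairing. Fitted with no replicate block, the log2 fold change was -0.88 at an adjusted p of 0.151, and without replicates 1, 3 or 4 the adjusted p was 0.0531, 0.193 and 0.102. Upper-quartile scaling also ended the call (adjusted p 0.0571), while DESeq2 gave -0.80 at an adjusted p of 0.00768. The 8 portal fibroblast markers summed to 68.0 to 185 TPM in control and 7.52 to 56.5 TPM in OGTi libraries, with Thy1, Eln, Gli1, Cd34, Pi16 and Clec3b under 1 TPM in all 8, and most of that sum is Fbln2 (136 ± 53.5 TPM in control and 33.4 ± 21.5 TPM in OGTi cells, SD, n = 4). The part of portal fibroblast RNA in the Tcf21 values was not tested.

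Among the genes whose differences in the 4 pairs lay nearest to those of Tcf21, out of 11657 others with a mean of at least 1 TPM, were Ctcf, which encodes the insulator protein of chromatin loops, and Jrk. The root mean square distance over the 4 pairs was 0.093 for Ctcf and 0.113 for Jrk, in log2 units. Ctcf differed by -0.84, -0.16, -1.48 and -0.76 in pairs 1 to 4, beside -0.84, -0.30, -1.41 and -0.85 for Tcf21. With 4 points each, this is a description of the pattern.

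Hand2, the bHLH factor of the septum transversum mesenchyme, had a fold change close to that of Tcf21 but did not pass the test. Its control libraries were close together, at 12.5, 16.2, 17.0 and 15.9 CPM, and the OGTi libraries stood at 13.3, 8.46, 8.67 and 5.51 CPM. OGTi replicates 2 to 4 were below all controls, whereas OGTi replicate 1 was above its own control by 0.09 on the log2 scale. For Hand2 the model gave -0.84 ± 0.29 (SE) on the log2 scale, at an adjusted p of 0.0709. Without replicate pair 1 it was -1.14 with an adjusted p of 0.0183, while without pairs 2, 3 and 4 it was -0.77, -0.79 and -0.60 with adjusted p of 0.170, 0.218 and 0.255. Hand2 was called in 6 of 14 alternatives. In TPM, which is scaled by the whole library, the groups did not overlap (10.7 to 15.1 TPM in control and 3.91 to 7.86 TPM in OGTi cells), and limma-trend on log2(TPM + 1) gave an adjusted p of 0.0282. The share of all genes without overlap in TPM was not counted.

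The scaling shifts all genes together. The median log2 fold change over all genes was 0.01 with TMM. It was 0.05 when the size factors of DESeq2 were used, 0.13 when upper quartiles were, and -0.19 when libraries were scaled by their totals. In the same order, the log2 fold change was -0.84, -0.79, -0.71 and -1.03 for Hand2 and -0.85, -0.80, -0.72 and -1.05 for Tcf21.

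Twist1, a bHLH driver of mesenchymal character, was rare, at 24, 31, 15 and 9 expected counts in control and 12, 11, 6 and 5 in OGTi libraries. In CPM these are 0.618, 0.765, 0.387 and 0.243 against 0.345, 0.345, 0.186 and 0.161. Each OGTi library was lower than its control, by 0.46 to 1.03 on the log2 scale. The log2 fold change was -0.91 ± 0.57 (SE) with an adjusted p of 0.306, so a difference was not detectable with the count test, although limma-trend on log2(TPM + 1) and on log2(TPM + 0.1) called it (adjusted p 0.0281 and 0.0487).

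Of the GATA factors, Gata4 had no difference that could be detected, with 15.4, 19.5, 19.9 and 15.4 CPM in control and 23.9, 17.4, 14.6 and 14.2 CPM in OGTi libraries. OGTi replicate 1 was the highest of all 8 and OGTi replicate 4 the lowest. Its log2 fold change was -0.02 ± 0.24 (SE), with an adjusted p of 0.964, and its sign turned in 9 of 14 alternatives, from -0.34 to 0.17. Gata6 stood at 7.26, 5.06, 6.17 and 6.22 CPM in control and 6.15, 3.67, 3.03 and 2.77 CPM in OGTi libraries. All 4 pairs were lower, by 0.24 to 1.15 on the log2 scale, and OGTi replicates 2 to 4 lay below every control. This log2 fold change of -0.72 ± 0.27 (SE) did not pass (adjusted p 0.0956), and it was called in 3 of 14 alternatives, those that scale by library totals (adjusted p 0.0469) or by TPM (0.0470 and 0.0446). Gata4 is also known from sinusoidal endothelium, and the 10 endothelial markers summed to 1.57 to 3.42 TPM in control and 0.36 to 1.36 TPM in OGTi libraries, with Clec4g, Stab2, Pecam1 and Cdh5 under 1 TPM in all 8. Gata6 is also known from mesothelium, and the 8 mesothelial markers summed to 94.9 to 158 TPM in control and 48.6 to 102 TPM in OGTi libraries, with Upk3b, Lrrn4 and Gpm6a under 1 TPM in all 8. Most of that sum is Krt19 (118 ± 23.9 TPM in control and 59.8 ± 11.8 TPM in OGTi cells, SD, n = 4), and Msln averaged 0.830 and 0.725 TPM. Krt8 and Krt18 stood at 11.1 and 13.5 TPM in control replicate 2 and at 12.3 and 14.2 TPM in OGTi replicate 2, and were lower in all other libraries. The part of mesothelial RNA in the Gata6 values was not tested.

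A ratio of 2 genes within a library does not depend on its scaling. The ratio of Gata6 to Gata4 counts was 0.472, 0.259, 0.311 and 0.403 in control and 0.257, 0.211, 0.207 and 0.195 in OGTi libraries, with every OGTi library below every control. Its mean was 0.361 ± 0.0949 against 0.217 ± 0.0272 (SD, n = 4), and the geometric means differed 1.63-fold (two-sided exact permutation test over the 8 libraries, p = 0.0286, the smallest that 4 against 4 can give). This test sets the pairing aside. An exact sign-flip test that keeps the 4 pairs gave p = 0.125, the smallest that a sign-flip test of 4 pairs allows, so that test cannot reach 0.05. This ratio and 3 others below were chosen after their values had been seen, and adjusted over the 4 the unpaired p was 0.0571.

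Foxf1, the forkhead factor of the visceral and hepatic mesenchyme, had a positive fold change that did not pass the test. It stood at 19.1, 18.9, 16.6 and 6.46 CPM in control and 32.9, 20.0, 16.7 and 17.9 CPM in OGTi libraries. The difference came mainly from pairs 1 and 4 (0.79 and 1.47 on the log2 scale), with pairs 2 and 3 near equal (0.08 and 0.01), and control replicate 4 was far below the other controls. Fitted over the 4 pairs, the log2 fold change was 0.58 ± 0.28 (SE) with an adjusted p of 0.192, and 0.30 with an adjusted p of 0.526 without replicate pair 4. It was positive and not called in all 14 alternatives (0.23 to 0.78). The first 300 bases of the Foxf1 transcript are 72.7% G and C, above 85.2% of expressed genes. Twist1, at 79.3%, was also lowest among the controls in replicate 4, whereas Bnc2, at 74.0%, was highest there, and the part of base composition was not tested.

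Fendrr, the long noncoding RNA that starts 1303 bases from Foxf1 on the opposite strand, fell. Its transcribed region, chr8:121781621-121809771 on the minus strand of GRCm39, does not overlap that of Foxf1, and the libraries are stranded. Fendrr stood at 4.09, 4.42, 4.75 and 2.81 CPM in control and 2.50, 1.69, 0.650 and 0.870 CPM in OGTi libraries, without overlap. Its fold change was 3.08 (log2 fold change -1.62, adjusted p 0.0153), though without replicate pairs 3 or 4 the adjusted p was 0.078 and 0.0624. The ratio of Fendrr to Foxf1 counts went from 0.215, 0.234, 0.286 and 0.435 in control to 0.0760, 0.0848, 0.0388 and 0.0485 in OGTi libraries. The means were 0.292 ± 0.0999 and 0.0620 ± 0.0219 (SD, n = 4), and the geometric means differed 4.76-fold, with all 4 pairs lower (two-sided exact permutation p = 0.0286 without the pairing, adjusted over the 4 ratios 0.0571, and exact sign-flip p = 0.125 with it). Leaving out each pair in turn gave log2 differences of -2.51 to -1.95.

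**Figure D3:**
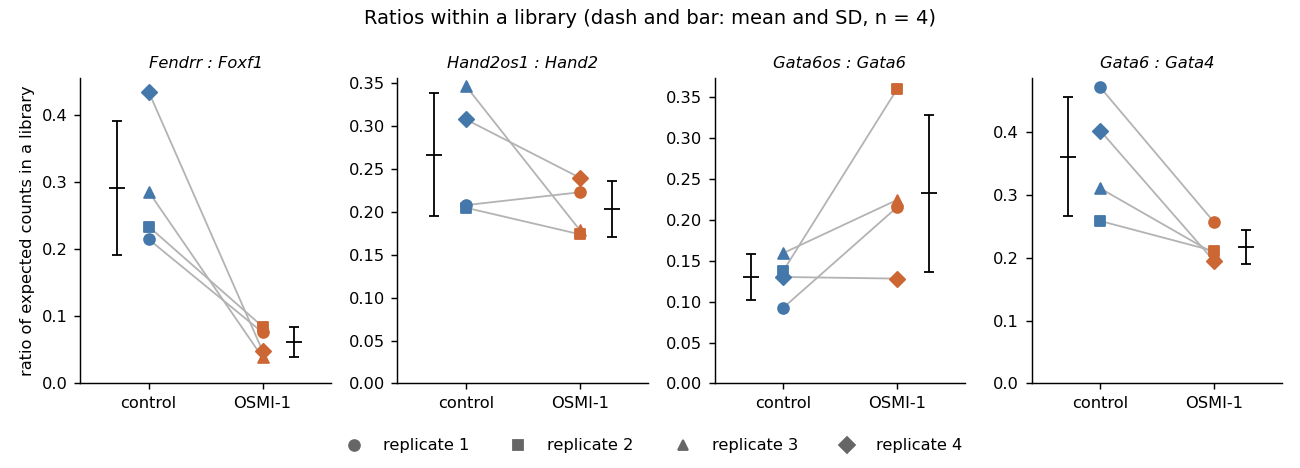
Ratio of expected counts of 2 genes within a library, for 3 divergent noncoding RNAs over the factor beside them and for Gata6 over Gata4, with pairs joined and a dash and bar for mean and SD (n = 4). The Fendrr to Foxf1 and Gata6 to Gata4 ratios do not overlap between groups, while the Hand2os1 to Hand2 and Gata6os to Gata6 ratios do.

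The other divergent transcripts showed no such split. Hand2os1 starts 748 bases from Hand2 on the opposite strand and stood at 2.60, 3.33, 5.89 and 4.89 CPM in control and 2.96, 1.47, 1.55 and 1.32 CPM in OGTi libraries. As for Hand2, OGTi replicate 1 was the exception among lower libraries. The log2 fold change of Hand2os1 was -1.21 with an adjusted p of 0.0600, and it was called in 7 of 14 alternatives. The ratio of Hand2os1 to Hand2 was 0.267 ± 0.0715 in control and 0.204 ± 0.0326 in OGTi cells (SD, n = 4, two-sided exact permutation p = 0.200 without the pairing, adjusted 0.200, and 0.250 with it). Gata6os, which starts 4822 bases from Gata6, had a log2 fold change of 0.09, and its ratio to Gata6 was 0.130 ± 0.0278 against 0.232 ± 0.0954 (exact permutation p = 0.114 without the pairing, adjusted 0.152, and 0.250 with it). Wt1os had 0 counts in all 8 libraries.

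Lhx2, the LIM homeodomain factor whose loss in mice is known to bring liver fibrosis, did not differ in one direction. It stood at 4.73, 5.55, 4.83 and 2.92 CPM in control and 5.80, 3.54, 2.23 and 3.16 CPM in OGTi libraries. Pairs 2 and 3 were lower (by 0.64 and 1.10 on the log2 scale) and pairs 1 and 4 higher (0.29 and 0.11). Over the 4 pairs the log2 fold change was -0.33 ± 0.31 (SE) with an adjusted p of 0.512. Its cofactors Ldb1, Ldb2 and Lmo4 were not called either.

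Wt1 and Bnc2, both zinc finger factors, were rare. Wt1 had 1, 32, 15 and 14 expected counts in control and 4, 3, 0 and 20 in OGTi libraries, and the count of 0 in OGTi replicate 3 allows up to 0.0929 CPM (3 counts, counting error only). Control replicate 2 and OGTi replicate 4 were highest, with no order between the groups, and the log2 fold change was -1.11 ± 1.17 (SE) with an adjusted p of 0.570. Bnc2 had 12, 6, 26 and 51 expected counts in control and 2, 7, 5 and 17 in OGTi libraries, spread over transcripts with a mean length of 12757 bases. Replicate 4 was highest in both groups, as for Tcf21, and pairs 1, 3 and 4 were lower by 1.25 to 1.79 on the log2 scale while pair 2 was higher by 0.43. The log2 fold change of -1.30 ± 0.66 (SE) did not pass (adjusted p 0.212). A trend of fold change with gene length was taken out in an alternative, which left -1.15 with an adjusted p of 0.219.

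Pparg had 3, 3, 10 and 6 expected counts in control and 10, 2, 27 and 15 in OGTi libraries. Pairs 1, 3 and 4 were higher by 1.31 to 1.50 on the log2 scale and pair 2 was lower by 0.13. A log2 fold change of 1.34 ± 0.73 (SE) did not pass (adjusted p 0.243), and it was positive and not called in all 13 alternatives that tested Pparg. Replicate 3 was highest in each group, and so was the summed level of the 10 macrophage markers, with 49.9, 55.0, 187 and 86.9 TPM in control and 90.2, 96.5, 234 and 93.6 TPM in OGTi libraries. In replicate 3 of both groups 0 of these 10 markers were at 0 TPM, against 2 to 7 in the other libraries, although Adgre1, Clec4f, Ptprc and Marco stayed under 1 TPM throughout. Cd5l, C1qa and C1qb were highest in replicate 3 of each group, at 6.21, 5.57 and 6.22 TPM in control and 4.19, 2.10 and 2.39 TPM in OGTi cells. Cd68, which encodes a lysosomal protein, was instead highest in replicate 1 of each group (32.3 and 69.4 TPM), and Ptprc was highest among controls in replicate 4. Cd68 was the single macrophage marker called (higher), and Lyz2, the highest of the 10 by mean TPM, did not pass (adjusted p 0.0964). The part of macrophage RNA in the Pparg values was not tested.

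**Figure D4:**
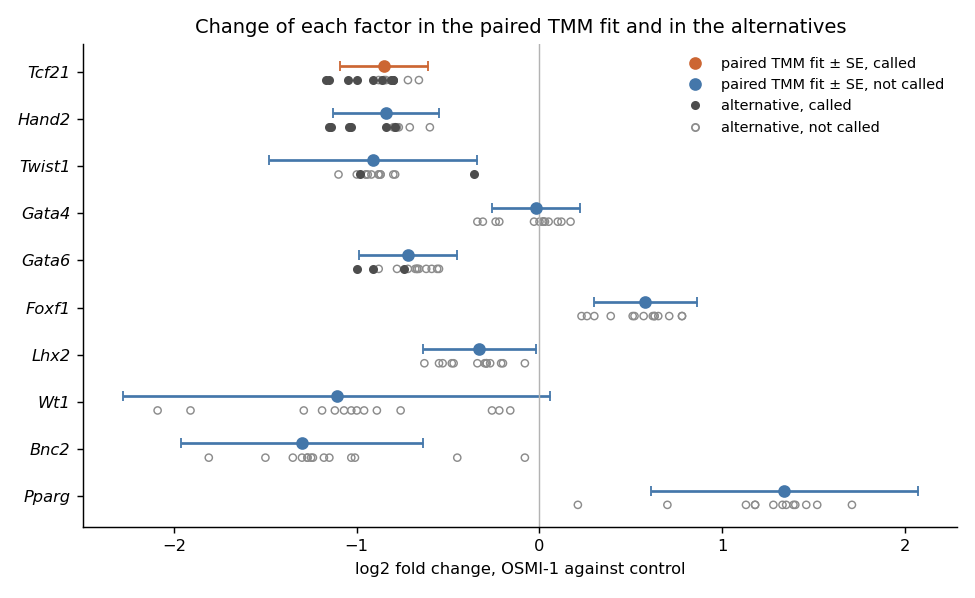
Log2 fold change of each factor with its standard error in the paired TMM fit (orange where called, blue where not) and, below it, under each alternative (filled where called). Tcf21 is called in that fit and in 9 of 14 alternatives, Hand2 in 6, Gata6 in 3 and Twist1 in 2 alternatives, and the points of Gata4 lie on both sides of 0.

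Around the bHLH factors, the dimer partner Tcf4, the inhibitors Id2 and Id3 and the relative Msc fell. Of 30 paralogues, cofactors and partners of the 10 factors, 28 were tested, 5 were lower, 1 was higher and 22 did not pass, with a median log2 fold change of -0.57. That is 6 of 28, near the 18.4% called over all genes. Folds here come from the TMM fit and levels are in TPM, so a fold differs from the ratio of the mean levels beside it. Tcf4, an E protein that pairs with TCF21, HAND2 and TWIST1, fell 4.59-fold (22.2 ± 3.95 TPM in control and 3.93 ± 1.12 TPM in OGTi cells, SD, n = 4, adjusted p 0.000597) without overlap. The other E protein genes did not pass, with Tcf3 at 3.32 ± 0.384 and 1.64 ± 0.397 TPM (adjusted p 0.0891) and Tcf12 at 7.58 ± 1.11 and 5.47 ± 2.57 TPM (adjusted p 0.588, lower in 2 of 4 pairs). Id2 and Id3, which encode proteins that bind E proteins and keep them off DNA, fell 2.30-fold (adjusted p 0.00409) and 1.97-fold (adjusted p 0.0161). Id1 (log2 fold change -0.53, adjusted p 0.310) and Id4 (0.09, adjusted p 0.971) did not pass. Id3 was the most abundant gene of the list, at 883 ± 256 TPM in control and 356 ± 98.3 TPM in OGTi cells. Msc, the musculin gene and a close relative of Tcf21, fell 2.33-fold (adjusted p 0.0431), from 3.34 ± 0.662 to 1.28 ± 0.732 TPM. Tcf4 and Id2 were called in all 14 alternatives, Id3 in 11 and Msc in 7. Without replicate pair 4, Id3 (-0.93, adjusted p 0.0659) and Msc (-0.91, adjusted p 0.154) lost their calls.

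Among the other paralogues, Gata2 had a log2 fold change of -1.26 that did not pass (adjusted p 0.0599), at 1.29, 2.91, 2.17 and 1.27 CPM in control and 0.316, 0.814, 1.08 and 1.06 CPM in OGTi libraries, without overlap. Gata3 stood at 2.83 ± 0.645 and 2.14 ± 0.667 TPM (SD, n = 4, adjusted p 0.833). Gata5 had 6, 16, 5 and 2 expected counts in control and 0 in each OGTi library, and did not pass (adjusted p 0.0771). Bnc1 and Hand1 had totals of 8 and 3 counts over the 8 libraries and were not tested. Lhx9 (adjusted p 0.954), Foxf2 (0.214) and Ppara (0.751) did not pass. Twist2 stood at 8.98 TPM in control replicate 2 and 1.24 to 3.00 TPM in the other controls, against 0.41 to 1.79 TPM in OGTi cells, and did not pass (adjusted p 0.174). Ppard, which encodes the PPAR of fatty acid oxidation in many tissues, rose 1.92-fold, from 1.89 ± 0.262 to 2.90 ± 0.466 TPM (SD, n = 4, adjusted p 0.0295), without overlap in CPM. Ppard was called in 7 of 14 alternatives and lost its call with library totals alone (adjusted p 0.0734), with limma-trend on either TPM scale (0.133 and 0.142) and without each replicate pair in turn (0.0505 to 0.153). Rxra, the dimer partner of the PPARs, stood at 12.3 ± 2.23 and 6.81 ± 2.29 TPM and did not pass (adjusted p 0.110).

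Of 10 textbook target genes of PPARG, 7 were tested, 3 were lower, 0 were higher and 4 did not pass, beside 10.2% lower over all genes, with a median log2 fold change of -0.02. Angptl4, which encodes a secreted inhibitor of lipoprotein lipase, fell 5.78-fold, from 516 ± 107 to 82.9 ± 52.8 TPM (SD, n = 4, adjusted p 0.00185). Plin2, the lipid droplet coat gene and the most abundant of the list, fell 2.13-fold, from 664 ± 88.2 to 268 ± 124 TPM (adjusted p 0.00757). Pdk4, which encodes the kinase that shuts off pyruvate dehydrogenase, fell 2.68-fold, from 53.5 ± 19.0 to 17.4 ± 8.61 TPM (adjusted p 0.0266), and lost its call without replicate pair 4 (-1.33, adjusted p 0.114). All 3 are also known targets of PPARα and PPARδ. Fabp4 (log2 fold change -0.01) and Lpl (0.41) did not pass, and Plin1, Plin4 and Adipoq were under the count minimum.

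Of 24 other transcription factors of mesenchymal and stellate cells, 23 were tested and 10 were called, 7 lower and 3 higher, beside 10.2% lower and 8.13% higher over all genes. Their median log2 fold change was -0.64. Prrx1, a homeobox gene of fibroblasts, fell 4.35-fold, from 4.01, 2.72, 8.23 and 9.50 TPM in control to 0.41, 1.38, 1.76 and 1.07 TPM in OGTi libraries (adjusted p 0.00336). Nr1h4, which encodes the bile acid receptor FXR, fell 2.87-fold, Irf1 2.71-fold, Nr2f2 2.23-fold, Zeb1 2.22-fold and Mef2c 2.83-fold (adjusted p 0.00597, 0.00733, 0.00922, 0.0191 and 0.0264). Osr1, a gene of early mesoderm, had 22, 17, 12 and 13 expected counts in control and 0, 0, 0 and 3 in OGTi libraries (adjusted p 0.0312). Of these genes, Prrx1, Nr1h4 and Irf1 were called in all 14 alternatives, Nr2f2 in 13, Zeb1 in 12, and Mef2c and Osr1 in 11 each. Osr1 lost its call without replicate pair 1, 2 or 3. Mef2c lost its call without pair 1 or 3 and with no replicate block. Sox9, a factor of cartilage, bile duct and fibrogenic stellate cells, rose 8.19-fold, from 1.50, 1.31, 1.96 and 0.42 TPM to 3.03, 5.38, 12.4 and 22.9 TPM (adjusted p 0.00858), with OGTi replicate 4 highest. Without replicate pair 4 the log2 fold change of Sox9 was 2.26 in place of 3.03 (adjusted p 0.00888). Runx1 rose 2.05-fold (adjusted p 0.0429) and Klf6, the most abundant of the list at 137 ± 25.3 TPM in control, rose 1.48-fold (adjusted p 0.0497). Klf6 was called in 5 of 14 alternatives and Runx1 in 7, and without replicate pair 4 neither was (adjusted p 0.124 and 0.158).

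**Figure D5:**
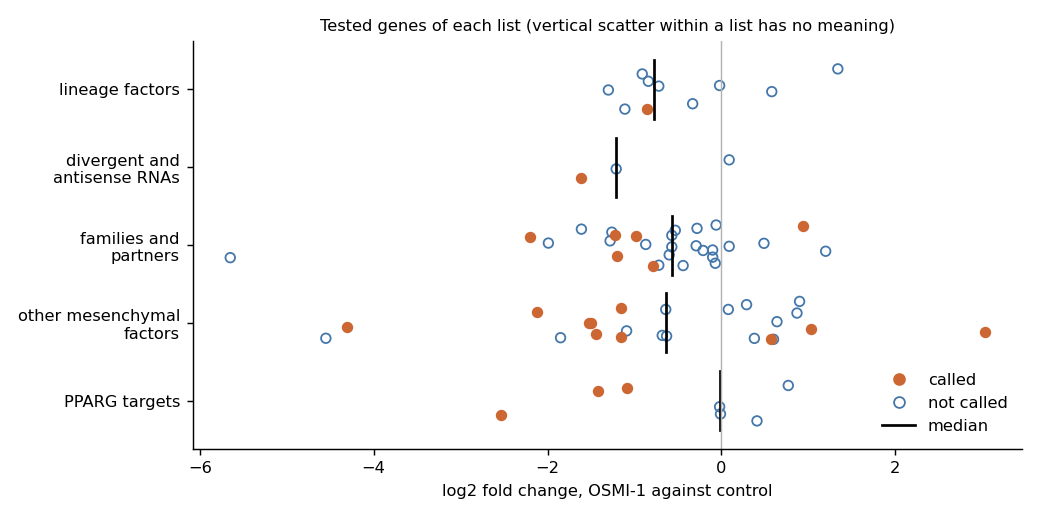
Log2 fold change of each tested gene of 5 lists (orange called, blue not called), with a line at the list's median. The 10 lineage factors lie between -1.30 and 1.34 with 1 call, while the other mesenchymal factors include Osr1 and Sox9 far from 0 on either side.

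Of the 17 stellate and myofibroblast markers, 5 were called, all lower, beside 10.2% lower over all genes. Positive fold changes were found for 7 of the 17, none called, and Tagln (0.53, adjusted p 0.0820), Timp1 (0.52, 0.0675), Lum (0.41, 0.151) and Sparc (0.30, 0.283) were higher in all 4 pairs. Among the markers not called, Col1a1 (-0.85, adjusted p 0.0761), Col3a1 (-0.72, 0.0517) and Col1a2 (-0.54, 0.153) were lower in all 4 pairs. The 5 called lower included Pdgfrb and Pdgfra, which encode receptors of platelet-derived growth factor, Hgf, which encodes hepatocyte growth factor, and Lrat. Lrat, the enzyme that stores vitamin A as retinyl ester, fell 3.43-fold (adjusted p 0.00232), and Hgf fell 4.36-fold (adjusted p 0.00156). Dcn, which encodes decorin and was the most abundant of the 17, did not pass (log2 fold change 0.25, adjusted p 0.311). In the lists for other cell types, Krt19, Fbln2, Lyve1, Tek and Sox4 were lower and Cyp2e1 was higher, while Ass1 and Spp1, the most abundant of the hepatocyte and cholangiocyte lists, did not pass (adjusted p 0.577 and 0.308).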

How the data were processed

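RNA was measured in 8 libraries, 4 control and 4 OGTi, grouped by their titles. The authors made stranded libraries from polyadenylated RNA, aligned reads with Bowtie2 2.3.5.1 to mm39 (GRCm39) and counted with RSEM 1.3.1, as the processing notes and methods give it. The deposited tables give an expected count for each gene, an RSEM estimate that can be fractional, and the TPM values deposited with them are scaled by transcript length and library. The methods name GENCODE, whereas transcript identifiers in the tables are RefSeq. A deposited table of the authors' own comparison (log2 fold changes and p-values) was not used, and 0 other columns of per-sample values were left aside.

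Expected counts were rounded and fitted with edgeR 4.0.16 in R 4.3.3 (genes with a total of at least 10 counts, TMM, replicate number as a block, quasi-likelihood test, Benjamini-Hochberg adjustment over 19963 genes, call at an adjusted p of at most 0.05). The SE is the fold change divided by the root of F. The biological coefficient of variation was 0.342. The pairing comes from the study's methods, and deviations of same-numbered libraries correlated across genes with r of 0.160, 0.224, 0.105 and 0.318, against -0.312 to 0.208 for libraries of different number. OGTi 1 was closer to control 2 (0.208) than to control 1, and control 3 was closer to OGTi 4 (0.122) than to OGTi 3. Alternatives were other scalings, DESeq2 1.42.0, other filters, no block, removal of a length trend, limma 3.58.1 on log2(TPM + 1) and log2(TPM + 0.1), and leaving out each pair. The code was tested on simulated data. The list genes called, the most abundant gene of each list and the closest paralogues were named, along with all 10 factors, and Ldb1, Ldb2, Lmo4, Gata2, Gata3, Gata5, Msln, Krt8, Krt18, Cd5l, C1qa, C1qb, Tagln, Timp1, Lum, Sparc, Col1a1, Col1a2, Col3a1, Tcf3, Tcf12, Id1, Id4, Rxra, Fabp4 and Lpl were added after their values were seen. The factors, lists and rules were chosen with earlier results of these data known. Gata6 was left out of the sequence search, and some genes that this rule would name are not reported here.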

Additional observations from a re-analysis of the deposited data

Results flagged for a closer look

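Among 64 groups of 4 libraries examined for a library far from the other 3, of which chance would give about 3.2, 3 were found. Tcf21 stood at 50.7 CPM in OGTi replicate 4, against 20.5 to 24.7 CPM in the other OGTi libraries, and control replicate 4 was also the highest of its group. Hand2os1 stood at 2.96 CPM in OGTi replicate 1, against 1.32 to 1.55 CPM in the others, as Hand2 was highest there. Osr1 stood at 0.0967 CPM in OGTi replicate 4, which is 3 counts, against 0 in the others.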

How the results depend on the processing

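The count of lineage factors called (1) was 0 with upper-quartile scaling, 0 with no replicate block, 3 with library totals alone (Hand2, Gata6 and Tcf21), 2 with DESeq2 and 2 with no filter on low counts (both Hand2 and Tcf21), 4 with limma-trend on log2(TPM + 1) and 4 on log2(TPM + 0.1) (Hand2, Gata6, Tcf21 and Twist1), and 0 to 1 when each replicate pair was left out. Family, partner and divergent genes (7 called of 31 tested) came to 11 with limma-trend on either TPM scale and 2 to 7 without a pair. Other mesenchymal factors (10 called) came to 6 with no replicate block and 4 to 8 without a pair. The 3 PPARG targets were called in every alternative except that Pdk4 was lost without pair 4. The log2 fold change of Gata4 changed sign, to 0.10 with upper-quartile scaling, 0.02 with DESeq2 size factors, 0.03 with DESeq2, 0.02 with filterByExpr, 0.00 with no replicate block, 0.17 with the length trend removed, and 0.02 to 0.12 without pairs 2, 3 or 4 (-0.24 without pair 1). The other 9 factors kept their direction in the alternatives that tested them. Causes were not tested. Leaving out a pair leaves 3 against 3, with fewer residual degrees of freedom. Wt1, Twist1, Bnc2 and Pparg had at most 51 expected counts in a library, so counting error is largest for them.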
